A study of Homo sapiens with 14 samples.

Results

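The genes described here encode the MLL family of histone methyltransferases and the subunits that work with it, as transcribed in MDA-MB-231 cells, an established human triple-negative breast cancer line. They were picked by symbol from the deposited gene table, which holds 10 of them among 19410 genes: MLL, MLL2, MLL3, SETD1A, ASH2L, WDR5, RBBP5, DPY30, MEN1 and PSIP1. The table uses older symbols, so MLL is KMT2A (the gene for MLL1), MLL2 is KMT2D and MLL3 is KMT2C. The RNA-Seq libraries came from unedited parental cells and from 6 CRISPR/Cas9 lines: SAP30-KO1 and SAP30-KO2, in which SAP30 was targeted, SIN3A+SIN3B-DKO1 and SIN3A+SIN3B-DKO2, in which SIN3A and SIN3B were both targeted, and MLL1-KO1 and MLL1-KO2, in which KMT2A was targeted. Each of the 7 conditions has 2 libraries, 14 in all, and every line was set against the same 2 parental libraries. By the study's methods, making the lines also involved delivery of guide RNA, puromycin and selection of cells. Parental cells are not described as treated in this way, so these steps cannot be told apart from loss of the targeted gene. The study's methods describe each knockout line as a mixture of several selected knockout cells, so a line is neither a single clone nor an unselected population, and although the study counts n as biological samples or experiments, it was not stated whether the 2 libraries of a line came from separate cultures. P-values therefore measure the spread between libraries, which may be technical. Comparisons between genotypes set means of 2 lines against each other, and their p-values leave out the spread between the lines of a genotype. In bulk RNA, fewer cells that express a gene and less RNA per cell cannot be told apart.

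These proteins write methyl groups on lysine 4 of histone H3 (H3K4), a mark of active promoters and enhancers. Each complex, called COMPASS after its yeast counterpart, is built on 1 catalytic SET-domain protein. SETD1A places much of the trimethylation at active promoters, MLL1 acts at a narrower set of promoters that includes HOX genes, and MLL2 and MLL3 (KMT2D and KMT2C) mainly place monomethylation at enhancers. WDR5, RBBP5, ASH2L and DPY30 form a core that all of these enzymes share and that raises their activity. Menin, the product of MEN1, and the chromatin reader LEDGF, the product of PSIP1, bind together to the amino terminus of MLL1 and tether it to chromatin. SAP30, SIN3A and SIN3B belong to the SIN3 histone deacetylase complex, and the study asked whether SAP30 works together with MLL1.

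The libraries held between 18415036 and 23162682 recovered reads, with a median of 21648530. SAP30 RNA had log2 fold changes against parental of -4.38 in SAP30-KO1 and -4.27 in SAP30-KO2. In the libraries labelled SIN3A+SIN3B-DKO, SIN3B RNA was lower by log2 fold changes of -0.61 and -0.71, while SIN3A RNA was higher by 0.47 and 0.32, so that directions drawn from these libraries rest on their labels. The study describes both proteins as knocked out in its SIN3A/3B double knockout cells, with immunoblots that do not name the line. Gene totals of RNA do not show whether transcripts carried an edit or made protein. Markers of mesenchymal triple-negative cells were abundant in all 14 libraries, with a summed level over VIM, CD44, EGFR, AXL and CAV1 between 7490 and 10600 TPM (TPM, a level divided by transcript length and scaled to the same sum in every library). Of 7 luminal and epithelial markers, ESR1, PGR and FOXA1 were at or below 0.191 TPM in every library and CDH1 at or below 1.25 TPM. The other 3 were expressed, with ERBB2 between 21.9 and 42.8 TPM, GATA3 between 8.16 and 17.3 TPM and EPCAM between 5.33 and 19.2 TPM, and the 7 together summed to between 42.2 and 76.2 TPM. PTPRC of leukocytes and ALB of hepatocytes did not exceed 0.603 and 0.263 TPM, and PECAM1 of endothelium lay between 1.55 and 3.97 TPM.

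All 10 genes passed the filter on low values. In parental cells, their mean levels followed the order DPY30 (124.5 TPM), WDR5 (105.1), PSIP1 (69.3), ASH2L (64.1), MEN1 (53.9), MLL (52.8), RBBP5 (47.1), SETD1A (29.0), MLL3 (20.3) and MLL2 (20.2). MLL was the most abundant of the enzymes and stood above the core subunit RBBP5, while the other enzymes lay at the low end. The libraries of neighbouring genes in this order overlapped only between MEN1 and MLL and between MLL3 and MLL2. DPY30 and WDR5 ranked first and next in every condition. MLL ranked 6 of 10 in parental cells, 8 in SAP30-KO1, 9 in MLL1-KO1 and 8 in MLL1-KO2, and MEN1 ranked 5 in parental cells and 3 in SIN3A+SIN3B-DKO1, MLL1-KO1 and MLL1-KO2.

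**Figure D1:**
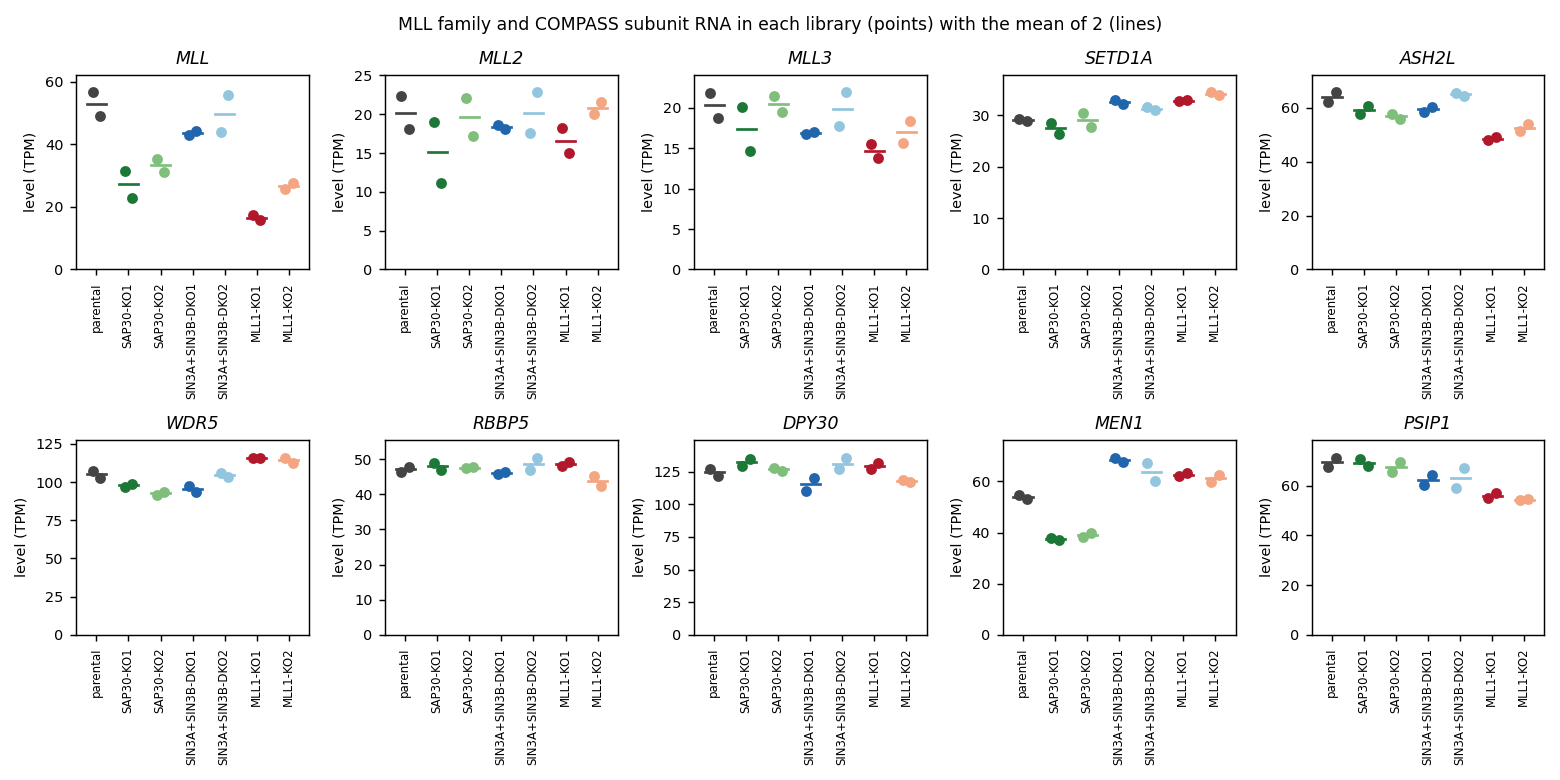
Level in TPM of each of the 10 genes in the 14 libraries, with the 7 conditions on the horizontal axis, points for single libraries and lines for the mean of 2; each vertical axis starts at 0. MLL lies lower in the SAP30-KO and MLL1-KO libraries, at 35.4 TPM or less, than in the parental libraries, and MEN1 lies lower only in the SAP30-KO libraries.

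Changes were tested with limma on log2(TPM + 0.5) over 13540 genes. A gene is said here to pass the test when the p adjusted by Benjamini and Hochberg's method was below 0.05, and to be called when the change was also 1.5-fold or more. MLL was called lower than parental in 4 of the 6 lines (the SAP30-KO pair and the MLL1-KO pair), and no other gene of the 10 was called in any line. In the MLL1-KO pair MLL was itself the targeted gene, so apart from the target none of the 10 was called there. The background is high in these data: of all genes tested, 7.86% were called lower in SAP30-KO1, 8.12% in SAP30-KO2, 16.3% in MLL1-KO1 and 14.9% in MLL1-KO2, so 1 of 10 called lower is near or below the background in each line. Called in either direction were 15.7%, 15.6%, 23.2% and 25.2% of all genes in these lines. In SIN3A+SIN3B-DKO1 and SIN3A+SIN3B-DKO2, 0 of 10 were called in either direction, where 16.4% and 13.6% of all genes were called.

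More of the genes passed the test with no fold minimum. In SAP30-KO1, 3 were lower and 0 higher, beside 22.9% and 28.1% of all genes. For SAP30-KO2 the counts were 4 lower and 0 higher, beside 24.8% and 26.9%. SIN3A+SIN3B-DKO1 had 2 lower and 2 higher, beside 28.2% and 27.8%, and SIN3A+SIN3B-DKO2 had 0 lower and 1 higher, beside 23.9% and 25.7%. MLL1-KO1 had 4 lower and 3 higher, beside 38.7% and 21.8%, and MLL1-KO2 had 3 lower and 3 higher, beside 36.2% and 28% of all genes. The median log2 fold change of the 10 was between -0.12 and 0.01 in the 6 lines, against medians between -0.09 and 0.03 over all genes tested.

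**Figure D2:**
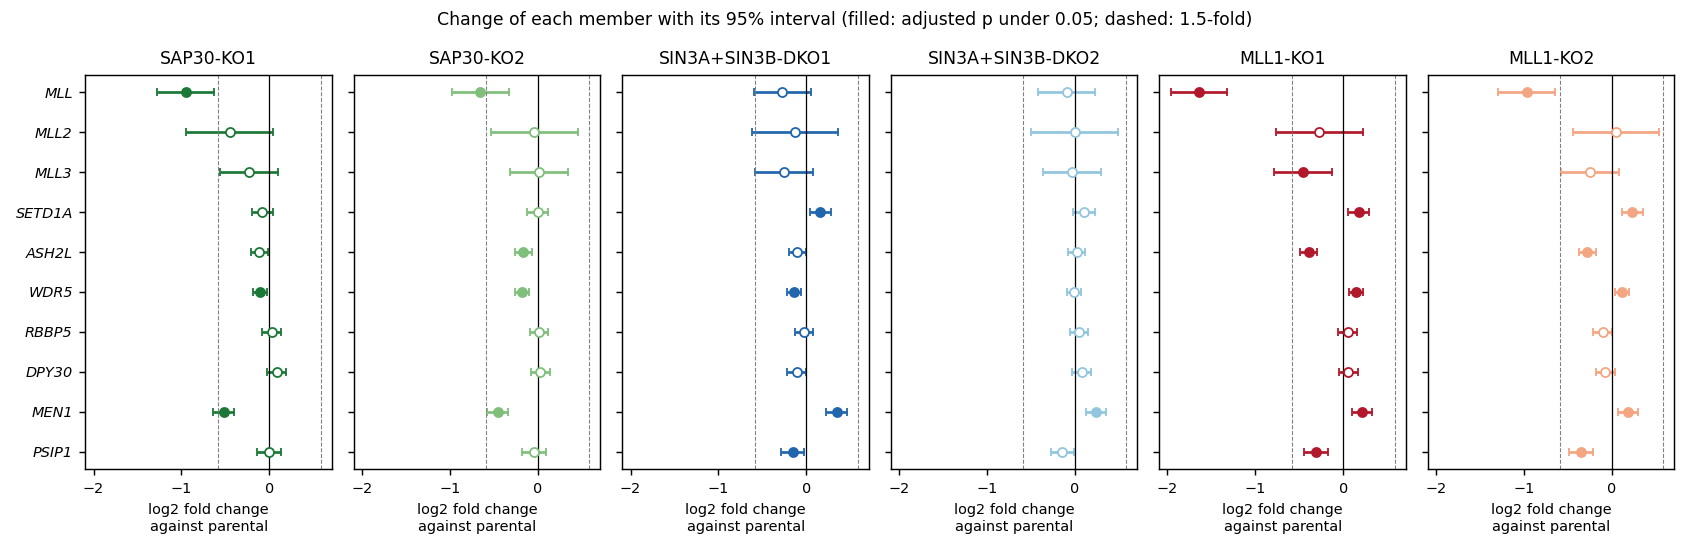
Log2 fold change of each gene against parental in the 6 edited lines, with bars for the 95% confidence interval from limma, filled points for adjusted p under 0.05 and dashed lines at 1.5-fold. MLL lies beyond the dashed line in both SAP30-KO lines and both MLL1-KO lines, with log2 fold changes of -0.95, -0.65, -1.64 and -0.97.

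MLL encodes the enzyme targeted in the MLL1-KO lines and lies on chromosome 11 of GRCh37 (the hg19 build of the files), forward strand, chr11:118307171-118397547. Parental cells had 56.7 and 49.0 TPM, against 17.4 and 15.8 TPM for MLL1-KO1 and 25.7 and 27.7 TPM for MLL1-KO2. The MLL1-KO libraries lay below both parental libraries without overlap, and MLL1-KO1 lay below MLL1-KO2. The log2 fold change was -1.64 in MLL1-KO1 (SE 0.15, 95% confidence interval -1.96 to -1.32, adjusted p = 2.7e-06) and -0.97 in MLL1-KO2 (SE 0.15, -1.29 to -0.65, adjusted p = 0.00015), so that 0.32 and 0.51 of the parental level remained. MLL RNA was thus still present in the lines in which the gene was targeted, on 2101 to 3297 reads per library, and these gene totals do not show whether the remaining transcripts carried an edit. The study checked both MLL1-KO lines at the protein level by immunoblot, so the RNA that remained is not a measure of remaining protein. Tested against each other, MLL1-KO2 had more MLL RNA than MLL1-KO1, by a log2 difference of 0.67 (SE 0.15, adjusted p = 0.0036), a comparison in which 10.4% of all genes were called.

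MLL was also lower in the lines in which SAP30 was targeted. It stood at 31.65 and 23.01 TPM in SAP30-KO1 and at 35.4 and 31.3 TPM in SAP30-KO2, all below both parental libraries. The log2 fold change was -0.95 in SAP30-KO1 (SE 0.15, 95% confidence interval -1.28 to -0.63, adjusted p = 0.00027) and -0.65 in SAP30-KO2 (SE 0.15, -0.98 to -0.33, adjusted p = 0.0033). The call in SAP30-KO2 was lost when parental replicate 1 was left out, with a log2 fold change of -0.55, and when SAP30-KO2 replicate 2 was left out, with -0.57. The 2 SAP30-KO lines did not differ past the test (log2 difference 0.30, 95% confidence interval -0.02 to 0.62, adjusted p = 0.41), in a comparison in which 0.148% of all genes were called. In the libraries labelled SIN3A+SIN3B-DKO, MLL was 42.9 and 44.2 TPM in the first line and 43.9 and 55.7 TPM in the second, overlapping the parental libraries in the second line only. Neither difference passed the test, with log2 fold changes of -0.27 (95% confidence interval -0.59 to 0.05, adjusted p = 0.14) and -0.09 (-0.41 to 0.23, adjusted p = 0.64). Set directly against the SIN3A+SIN3B-DKO lines, MLL was lower in the SAP30-KO lines, by -0.62 (SE 0.10, adjusted p = 0.00053), and in the MLL1-KO lines, by -1.12 (SE 0.10, adjusted p = 2.5e-06). It was called in both comparisons, in which 7.47% and 19.9% of all genes were called. The SEs of these genotype comparisons come from libraries within a line and leave out the spread between lines. Against the SAP30-KO lines, MLL was lower in the MLL1-KO lines by -0.50 (SE 0.10, adjusted p = 0.0012), which passed the test but not the fold minimum.

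The neighbours of MLL on chromosome 11 moved with it. Around each gene, the median log2 fold change was taken over the 51 consecutive tested genes centred on it. Around MLL this median was -0.91 for SAP30-KO1 and -0.85 for SAP30-KO2. It was -0.24 and -0.21 for the SIN3A+SIN3B-DKO lines, and -0.95 for MLL1-KO1 but -0.42 for MLL1-KO2. In the SAP30-KO lines the neighbourhood was therefore lower by about as much as MLL itself. With the running median subtracted from each library, the log2 fold change of MLL was -0.10 in SAP30-KO1 (adjusted p = 0.61) and 0.26 in SAP30-KO2 (adjusted p = 0.16), and neither was past the test. In the MLL1-KO lines MLL remained lower than its neighbours, by -0.70 in MLL1-KO1 (adjusted p = 0.0014) and -0.54 in MLL1-KO2 (adjusted p = 0.0061), of which the first kept the 1.5-fold call and the second did not. The called difference between the SAP30-KO and SIN3A+SIN3B-DKO lines at MLL went from -0.62 to -0.01 (adjusted p = 0.93), against a neighbour median of -0.62 for that comparison, and was no longer past the test. Between the MLL1-KO and SIN3A+SIN3B-DKO lines -0.71 remained of -1.12 (adjusted p = 6.9e-05), and between the MLL1-KO and SAP30-KO lines the difference went from -0.50 to -0.70 (adjusted p = 8.7e-05), both past the fold minimum. On the same scale MLL1-KO2 and MLL1-KO1 differed by 0.15 (adjusted p = 0.42), so that the difference between these lines at MLL also went with a difference in its neighbourhood. How much of each change belongs to MLL and how much to the neighbourhood cannot be told apart in these data, since subtracting the neighbours removes whatever they have in common with MLL, regulation included.

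**Figure D3:**
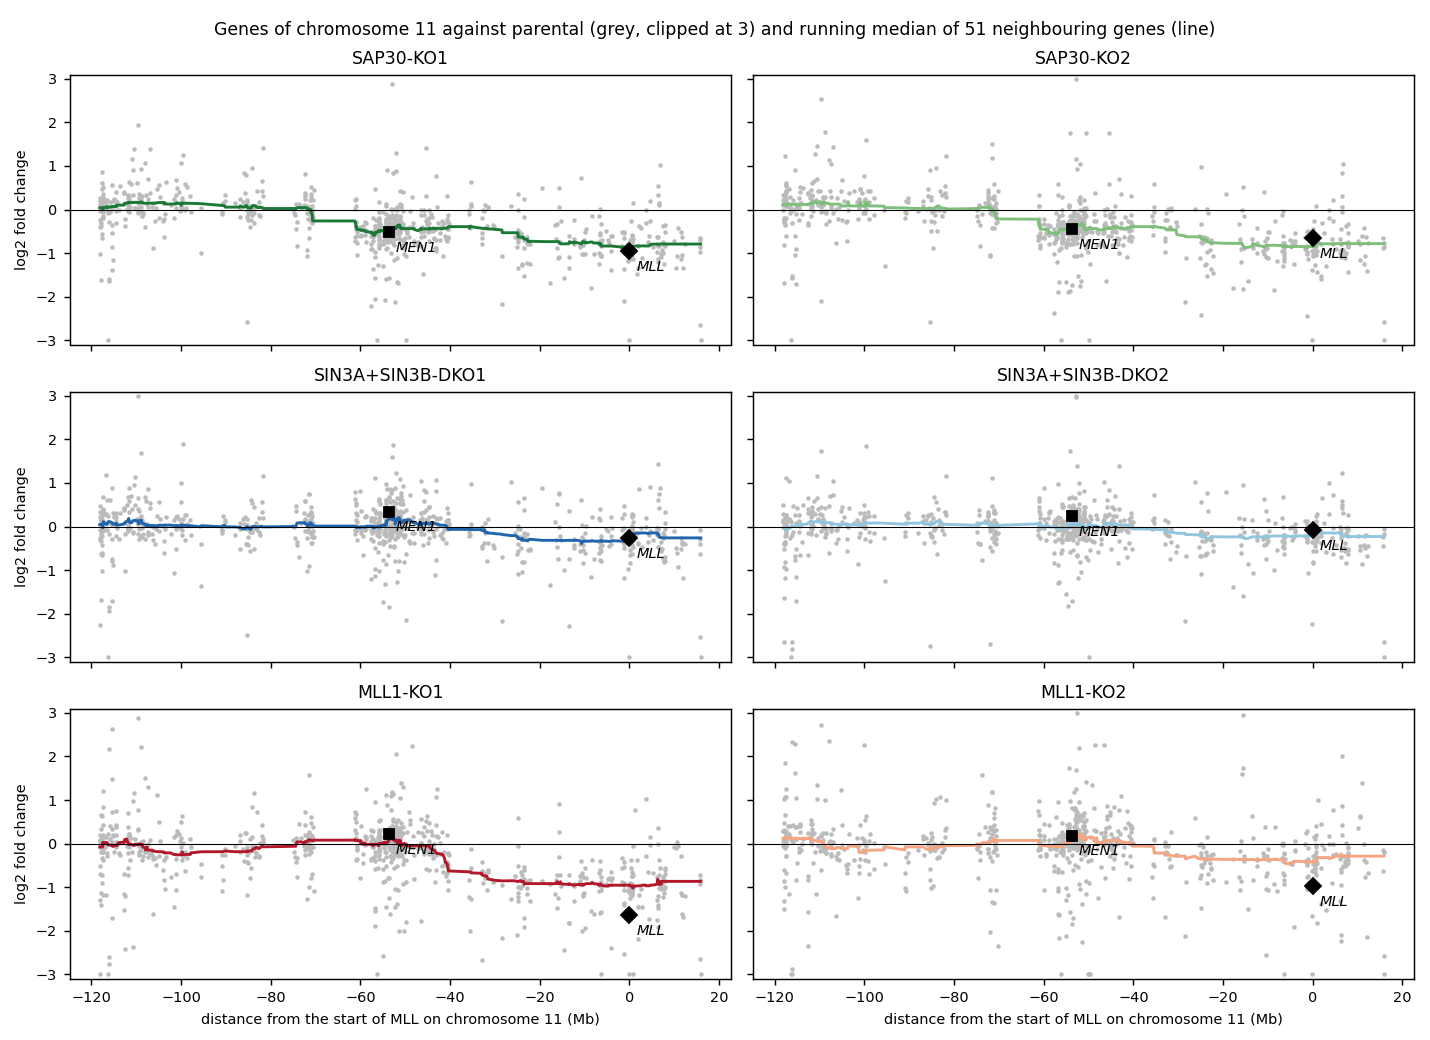
Log2 fold change against parental of the tested genes of chromosome 11 (grey points, clipped at 3 on either side) by distance in Mb from the start of MLL, 1 panel for each edited line, with the running median over 51 genes as a line, MLL as a diamond and MEN1 as a square. In the SAP30-KO panels both genes lie near the line, at neighbour medians of -0.91 and -0.85 for MLL and -0.49 and -0.45 for MEN1, and in the MLL1-KO panels MLL lies below a line that stands at -0.95 and -0.42.

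MEN1, which encodes menin, lies on the reverse strand of the same chromosome, chr11:64570982-64578766 on GRCh37. It passed the test in all 6 lines and in 2 directions. Parental cells had 54.5 and 53.2 TPM, against 37.7 and 37.1 TPM for SAP30-KO1 and 38.2 and 39.9 TPM for SAP30-KO2. In the libraries labelled SIN3A+SIN3B-DKO it was 69.4 and 67.7 TPM in the first line and 67.4 and 60.3 in the second, and MLL1-KO1 had 62.1 and 63.2 TPM and MLL1-KO2 59.8 and 62.7 TPM. The 4 SAP30-KO libraries thus lay below the parental ones and the other 8 edited libraries above them, with no overlap. MEN1 fell in SAP30-KO1 and SAP30-KO2, with log2 fold changes of -0.52 and -0.46 (SE 0.05, adjusted p = 1.2e-05 and 3e-05). It rose by 0.34 and 0.24 in the SIN3A+SIN3B-DKO lines (adjusted p = 0.00024 and 0.0028) and by 0.22 and 0.18 in the MLL1-KO lines (adjusted p = 0.0042 and 0.01). None of these changes reached 1.5-fold, but the distance between genotypes did: MEN1 was called higher in the MLL1-KO lines than in the SAP30-KO lines, by 0.69 (SE 0.04, adjusted p = 2.9e-08), where 19.8% of all genes were called, and lower in the SAP30-KO lines than in the SIN3A+SIN3B-DKO lines, by -0.78 (SE 0.04, adjusted p = 5.5e-08). Here too the SEs leave out the spread between the lines of a genotype.

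The neighbourhood of MEN1 was lower in the SAP30-KO lines as well, with medians of -0.49 and -0.45, close to the changes of MEN1. After subtraction of the running median, MEN1 differed from parental by -0.05 in SAP30-KO1 (adjusted p = 0.38) and -0.02 in SAP30-KO2 (adjusted p = 0.70), so its lower level there no longer passed the test. The higher levels did pass, at 0.18 and 0.20 in the SIN3A+SIN3B-DKO lines (adjusted p = 0.0035 and 0.0023) and at 0.19 and 0.11 in the MLL1-KO lines (adjusted p = 0.0021 and 0.035). The difference between the SAP30-KO and SIN3A+SIN3B-DKO lines shrank from -0.78 to -0.22 (adjusted p = 1e-04), and that between the MLL1-KO and SAP30-KO lines from 0.69 to 0.19 (adjusted p = 0.00017), both short of the fold minimum.

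**Figure D4:**
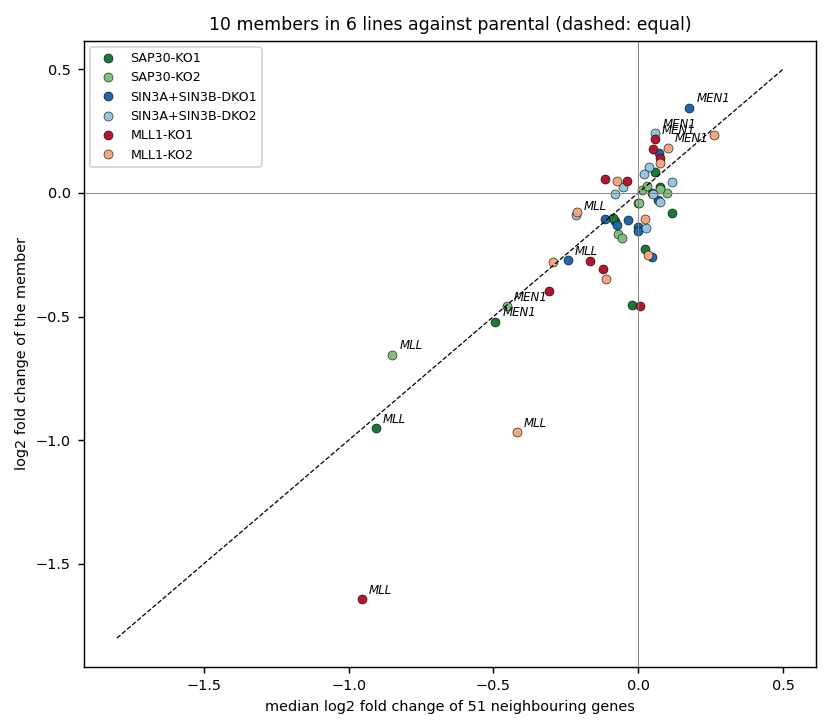
Log2 fold change of each of the 10 genes in each of the 6 edited lines (vertical axis) against the median log2 fold change of the 51 genes centred on it (horizontal axis), coloured by line, with a dashed line where both are equal. MLL in the MLL1-KO lines lies farthest below the dashed line, at -1.64 against -0.95 and at -0.97 against -0.42.

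MLL and MEN1 were both lower in the SAP30-KO lines, as were their neighbours on chromosome 11. The promoters of the 2 genes are shown as a description, and a part of the promoters in these changes was not tested. The sequences are the 250 bases before the RefSeq start of each gene on GRCh38.p14, 5′ to 3′ on the gene's strand, chr11:118436242-118436491 on the forward strand for KMT2A and chr11:64810552-64810801 on the reverse strand for MEN1. Capitals mark the GC box, GGGCGG or its reverse complement CCGCCC, and the CCAAT box, CCAAT or ATTGG.
KMT2A: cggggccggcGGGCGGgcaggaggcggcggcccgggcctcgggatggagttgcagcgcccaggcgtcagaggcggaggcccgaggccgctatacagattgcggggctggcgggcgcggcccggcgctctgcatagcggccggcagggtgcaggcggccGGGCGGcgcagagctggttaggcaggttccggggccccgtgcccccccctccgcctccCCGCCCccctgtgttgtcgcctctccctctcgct
MEN1: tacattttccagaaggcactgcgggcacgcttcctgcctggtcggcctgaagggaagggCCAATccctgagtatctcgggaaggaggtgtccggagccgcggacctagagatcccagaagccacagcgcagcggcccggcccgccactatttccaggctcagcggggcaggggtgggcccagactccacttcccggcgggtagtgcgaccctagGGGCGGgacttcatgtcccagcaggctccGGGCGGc
The KMT2A promoter held 31 CG dinucleotides and 78.4% G and C, and the MEN1 promoter 18 and 67.2%. The median over 35116 promoters of this length was 11 CG dinucleotides. Fewer than in KMT2A were found in 89.1% of these promoters, and fewer than in MEN1 in 63.2%. KMT2A had 3 GC boxes and no CCAAT box, and MEN1 had 2 GC boxes and 1 CCAAT box. Of all promoters, 42.6% held at least 1 GC box and 32% at least 1 CCAAT box, so the presence of either is not unusual. How many promoters held 2 or 3 GC boxes was not counted. Of 2 longer motifs searched on both strands, the NRF1 palindrome (in 1.03% of promoters) and the ETS core CCGGAAG (in 8.52%), neither occurred in these windows. Binding at these sites was not measured here.

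The other enzymes changed less. SETD1A (chr16:30968615-30995985) was 29.3 and 28.8 TPM in parental, 32.7 and 33.0 in MLL1-KO1, with 34.5 and 33.9 for MLL1-KO2. It rose by log2 fold changes of 0.18 and 0.23 in these lines (adjusted p = 0.017 and 0.0032) and by 0.16 in SIN3A+SIN3B-DKO1 (adjusted p = 0.027), and every library of these 3 lines lay above both parental libraries. With the running median of neighbours subtracted the differences were 0.12 and 0.01 in the MLL1-KO lines (adjusted p = 0.078 and 0.85) and 0.04 in SIN3A+SIN3B-DKO1 (adjusted p = 0.52), none past the test, while SETD1A was then lower in the SAP30-KO lines, by -0.16 and -0.15 (adjusted p = 0.024 and 0.039). The rises in MLL1-KO1 and SIN3A+SIN3B-DKO1 also missed the test without parental replicate 2. MLL3 (chr7:151832007-152133729) was 21.8 and 18.8 TPM in parental and 15.5 and 13.7 in MLL1-KO1, and passed the test in this line only, with a log2 fold change of -0.46 (SE 0.15, adjusted p = 0.021), which it no longer did without parental replicate 1 (-0.35) or MLL1-KO1 replicate 2. Whether the fall was particular to MLL1-KO1 was not shown, since MLL1-KO2, at 15.6 and 18.4 TPM, did not differ from it past the test (log2 difference 0.21, 95% confidence interval -0.12 to 0.54, adjusted p = 0.29). MLL2 (chr12:49412758-49454577) passed the test in no line, with log2 fold changes between -0.45 and 0.05. Its SE, which the fit pools over all conditions, was 0.22 in every line, and the interval ran from -0.95 to 0.04 in SAP30-KO1, whose libraries stood at 19.1 and 11.1 TPM.

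The transcripts of MLL, MLL2 and MLL3 are the longest of the 10, at 16594, 19419 and 16862 bases, and their replicates agreed least. In SAP30-KO1, replicate 2 was below replicate 1 by 0.45, 0.76 and 0.44 on the log2 scale for MLL, MLL2 and MLL3. Long transcripts as a class moved with the library: over the 851 genes with transcripts of more than 8000 bases, the median difference of replicate 2 from replicate 1 was -0.12 in SAP30-KO1, -0.08 in parental and 0.12 in SIN3A+SIN3B-DKO2. Against parental, the same class had a median log2 fold change of -0.20 in MLL1-KO1 and -0.10 in MLL1-KO2, against -0.02 and 0 for transcripts under 2000 bases. With each library's trend on transcript length removed, an alternative chosen after seeing the data, MLL was still called lower in the same 4 lines, with log2 fold changes of -0.87, -0.64, -1.44 and -0.92. The difference between the MLL1-KO lines at MLL became 0.52 (adjusted p = 0.0011), below the fold minimum.

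As a share of the summed level of 6 H3K4 methyltransferase genes (MLL, MLL2, MLL3, MLL4, SETD1A and SETD1B, where MLL4 is KMT2B, an enzyme close to MLL1), MLL made up 32.4% and 31.7% in the parental libraries. Its share was 12.8% and 12.7% in MLL1-KO1, 18.0% and 18.2% in MLL1-KO2, between 20.5% and 22.3% in the SAP30-KO libraries and between 27.7% and 32.3% in the libraries labelled SIN3A+SIN3B-DKO. MLL held the largest of the 6 shares in parental cells, and in both MLL1-KO1 libraries it was behind SETD1A, SETD1B and MLL4. The sum itself was 175.1 and 154.3 TPM in parental, 136.2 and 123.8 in MLL1-KO1, with 143.4 and 151.8 for MLL1-KO2, all below the parental sums. The sum was also below both parental sums in SAP30-KO1, at 145.4 and 112.5 TPM, the latter the lowest of all libraries. In SAP30-KO2 and the libraries labelled SIN3A+SIN3B-DKO it lay between 142.4 and 172.3 TPM. The ratio of MEN1 to MLL RNA was 0.96 and 1.09 in parental, 3.58 and 4.01 in MLL1-KO1, with 2.32 and 2.27 for MLL1-KO2. It was also above both parental ratios in SAP30-KO1, at 1.19 and 1.61, and in SIN3A+SIN3B-DKO1, at 1.62 and 1.53. In SAP30-KO2 it was 1.08 and 1.27 and in SIN3A+SIN3B-DKO2 1.53 and 1.08, so that each of these lines overlapped parental.

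**Figure D5:**
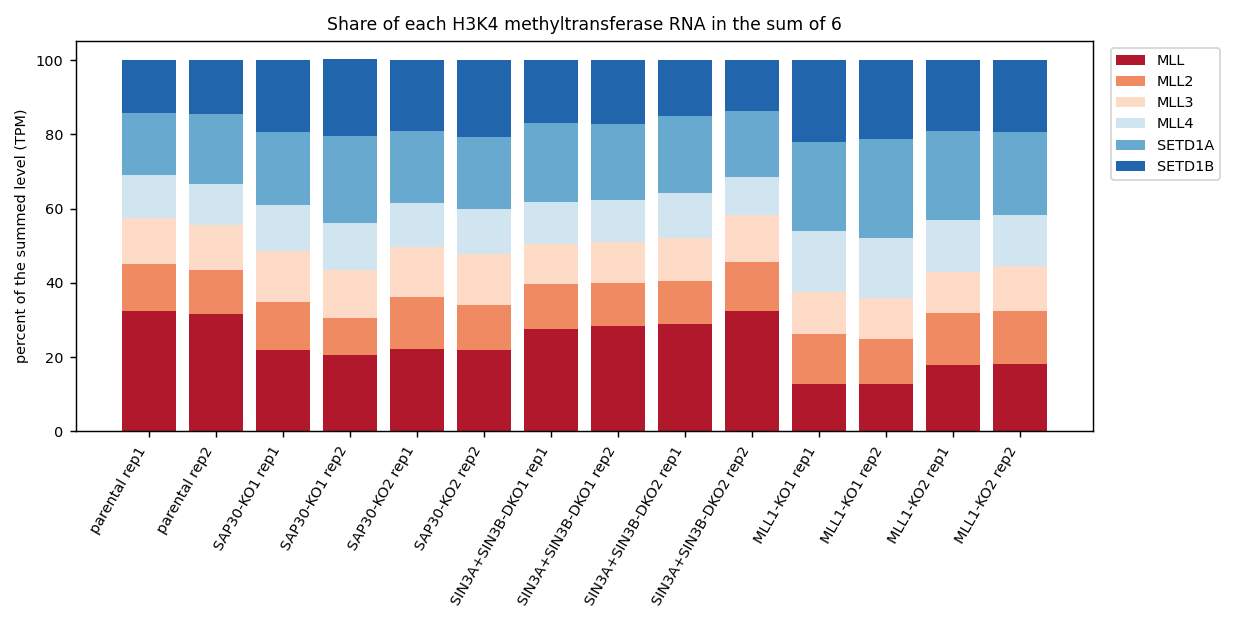
Share in percent of each of 6 H3K4 methyltransferase genes in their summed TPM, 1 stacked bar for each of the 14 libraries. The bottom segment, MLL, falls from 32.4% and 31.7% in parental to 12.8% and 12.7% in MLL1-KO1 and to 18.0% and 18.2% in MLL1-KO2.

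In the shared core, ASH2L and WDR5 moved in opposite directions in the MLL1-KO lines. ASH2L, which with RBBP5 stimulates the catalytic domain, lies on chromosome 8 of GRCh37 from 37963011 to 38001594. It was 62.3 and 65.8 TPM in parental, 47.9 and 49.2 in MLL1-KO1, with 51.5 and 53.9 for MLL1-KO2. These 4 libraries lay below the other 10, whose lowest value was 56.1 TPM, and ASH2L fell by log2 fold changes of -0.40 and -0.28 (SE 0.04, adjusted p = 1.5e-05 and 2e-04). Its neighbours were lower there too, with medians of -0.31 and -0.30, and after subtraction ASH2L differed from parental by -0.08 and 0.01 (adjusted p = 0.15 and 0.92). It also fell in SAP30-KO2, by -0.17 (adjusted p = 0.0078), which missed the test without parental replicate 2 (-0.13) or SAP30-KO2 replicate 2.

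WDR5, the subunit that docks the SET-domain protein onto the core (chr9:137000487-137025090), was 107.5 and 102.8 TPM in parental, 115.6 and 116.1 in MLL1-KO1, with 115.9 and 112.5 for MLL1-KO2. It rose by log2 fold changes of 0.14 and 0.12 (SE 0.04, adjusted p = 0.0063 and 0.014), and these 4 libraries lay above the other 10. It fell in SAP30-KO1, SAP30-KO2 and SIN3A+SIN3B-DKO1, by -0.10, -0.18 and -0.14 (adjusted p = 0.033, 0.0016 and 0.0075). After subtraction of the neighbours the differences in the MLL1-KO lines were 0.01 and -0.03 (adjusted p = 0.86 and 0.60), which turns the direction in MLL1-KO2. Both rises missed the test without parental replicate 2 (0.11 and 0.09), and the falls in SAP30-KO1 and SIN3A+SIN3B-DKO1 without parental replicate 1 (-0.07 and -0.11). RBBP5 (chr1:205055270-205091143) and DPY30 (chr2:32092878-32264874) passed the test in none of the 6 lines. RBBP5 lay between 42.3 and 50.5 TPM and DPY30 between 110.4 and 135.9 TPM over the 14 libraries. The intervals of their log2 fold changes all stayed within -0.26 and 0.29, counting the comparisons between lines of a genotype, and in those comparisons both were lower in MLL1-KO2 than in MLL1-KO1, by -0.15 and -0.13 (adjusted p = 0.025 and 0.047), and DPY30 was higher in SIN3A+SIN3B-DKO2 than in SIN3A+SIN3B-DKO1, by 0.19 (adjusted p = 0.033), where 2.23% of all genes were called and none of the 10.

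PSIP1, the gene of the tether LEDGF (chr9:15464064-15510993), fell in both MLL1-KO lines and in SIN3A+SIN3B-DKO1. It was 67.4 and 71.2 TPM in parental, 54.9 and 56.9 in MLL1-KO1, with 54.0 and 54.5 for MLL1-KO2, and these 4 libraries lay below the remaining 10. The log2 fold changes were -0.31 and -0.35 (SE 0.06, adjusted p = 0.0011 and 0.00043), against neighbour medians of -0.12 and -0.11, and -0.13 and -0.21 remained after subtraction (adjusted p = 0.036 and 0.0029). In the libraries labelled SIN3A+SIN3B-DKO it was 58.92 to 66.96 TPM, all below both parental libraries, with log2 fold changes of -0.16 and -0.14 (adjusted p = 0.049 and 0.076). After subtraction these were -0.17 and -0.22 (adjusted p = 0.0092 and 0.0029), and the MLL1-KO and SIN3A+SIN3B-DKO lines then differed by 0.03 (adjusted p = 0.44), against -0.18 before it (adjusted p = 0.0031). In the SAP30-KO lines PSIP1 was 65.5 to 70.5 TPM and overlapped parental. In the MLL1-KO lines, then, RNA of the enzyme and of LEDGF was lower and RNA of menin was higher. The MLL1-KO lines were the ones in which quantile normalization moved the log2 fold changes most, with a median shift per gene of 0.14 in MLL1-KO1. Under it the falls of ASH2L and PSIP1 and the rises of MEN1, SETD1A and WDR5 kept their directions.

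Across the 14 libraries, the genes whose log2 values followed MLL most closely were ATM, a DNA damage kinase (Pearson r = 0.97), FLNC (0.97), KIAA2018 (0.96), ATP2A2 (0.96) and PHACTR2 (0.96). These are descriptions over 14 libraries that share 7 conditions. ATM lies on the same chromosome arm as MLL, chr11:108093771-108239829, and was 29.7 and 26.5 TPM in parental and 13.8 and 11.5 in MLL1-KO1, and the other 4 lie on other chromosomes. The transcripts of all 5 are long, between 8314 and 13707 bases. Among the 10 genes themselves, MLL was closest to ASH2L (r = 0.87).

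Of 13 other COMPASS subunits and partners, all tested, CXXC1 was called higher in all 6 lines. In a single line, between 13.6% and 25.2% of all genes tested were called in either direction, so the number called from this list is not unusual. How many of all genes were called higher in all 6 lines was not counted here. CXXC1 encodes CFP1, the CpG-binding subunit that brings the SETD1A and SETD1B complexes to CpG islands. The parental libraries had 23.4 and 24.2 TPM, and the 12 edited libraries between 38.3 and 49.6 TPM. The log2 fold changes lay between 0.81 and 1.03 (SE 0.07, largest adjusted p = 5.6e-06), and the neighbour medians between 0.07 and 0.31. Because all lines share the same 2 parental libraries, a shared low value in these would appear in every line, as would a change brought by the making and selection of the lines. BOD1L1, a partner of the SETD1A complex, was called higher in both SIN3A+SIN3B-DKO lines, at 80.3 to 89.0 TPM against 49.8 and 47.2 in parental (log2 fold changes 0.74 and 0.81), with neighbour medians of 0.32 and 0.43. In the same list HCFC2 was called lower in MLL1-KO1 (-0.61), where MLL1-KO2 had -0.37. No other of the 13 was called in any line.

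Of 8 textbook targets of menin and MLL1, 6 were in the table and 5 were tested. HOXA9 and HOXA10 were the ones absent. In the MLL1-KO lines CDKN2C, which encodes the cell cycle inhibitor p18, was called lower in both, from 90.6 and 91.0 TPM in parental to 41.8 and 41.5 in MLL1-KO1, with 57.6 and 58.3 for MLL1-KO2. The log2 fold changes were -1.11 and -0.64 (adjusted p = 9.3e-10 and 4.8e-08), with neighbour medians of 0.04 and 0.02. PBX3, a homeodomain partner of HOX proteins, was called higher in both, from 19.0 TPM in each parental library to between 28.7 and 40.4 (log2 fold changes 0.64 and 1.06). CDKN1B, which encodes the inhibitor p27, was called lower in MLL1-KO2 (-0.95) and passed the test below the fold minimum in MLL1-KO1 (-0.28, adjusted p = 0.0036). None of the 5 was called in the SAP30-KO or SIN3A+SIN3B-DKO lines, where between 13.6% and 16.4% of all genes were called in either direction. In MLL1-KO1 and MLL1-KO2 that share was 23.2% and 25.2%. With 5 genes these counts cannot tell the genotypes apart. The median of the 5 was -0.28 and -0.49 in the MLL1-KO lines, against -0.09 and -0.04 over all genes tested.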

How the data were processed

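The authors prepared mRNA libraries from total RNA (KAPA mRNA HyperPrep, NextSeq), and the submitters' processing notes name FastQC 0.11.2, TopHat, featureCounts and hg19. The authors deposited 1 table with a value per gene and library, named RPKM. Every library sums to 1000000, so the deposited values were used as TPM, although the tests had been designed for RPKM. A fixed sum hides changes in total RNA. The spacing of the values gave back whole reads for 18519 of 18519 genes above 0 (100.0%, within 0.00735 of a whole read). Reads shared between paralogs or overlapping genes could not be separated.

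Genes with at least 1 TPM in at least 2 libraries were fitted with limma 3.58.1 in R 4.3.3 on log2(TPM + 0.5), a scale that understates changes of low genes, as 7 group means over 14 libraries with a variance trend. Adjusted p-values cover all 13540 genes. Genes were called at adjusted p under 0.05 and 1.5-fold. The procedure was run on simulated independent counts with 1 fixed dispersion. These held no length trends, no shifts shared along a chromosome and no spread between lines, so the run does not test those features. Positions are from GENCODE on GRCh37 (96.5% of tested genes matched), and promoters are from RefSeq. Named genes are the 10 genes, the targeted genes, the 5 most like MLL, and list genes called in both lines of a genotype, and other list genes were named after their values were seen. The members and lists were chosen with earlier results of these data known. Alternatives were pseudocounts of 0.1 and 1, no filter, quantile and median-ratio scaling, other fold minimums, fewer groups, a replicate block, voom on recovered reads, each library left out, subtraction of the neighbour median, and removal of length trends (lowess span 0.3). Python 3.11.15 drew the plots.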

Additional observations from a re-analysis of the deposited data

Results flagged for a closer look

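Differences between lines or genotypes that were called, by a limma test of the difference itself and the 1.5-fold minimum, were found at MLL and MEN1. Differences below the fold minimum also passed the test between genotypes, at ASH2L, WDR5, SETD1A and PSIP1 among others. For genotypes this test leaves out the spread between the lines of each. MLL RNA was higher in MLL1-KO2 than in MLL1-KO1 by 0.67 on the log2 scale. MLL was lower in the MLL1-KO lines than in the SIN3A+SIN3B-DKO lines by -1.12, and lower in the SAP30-KO lines than in the SIN3A+SIN3B-DKO lines by -0.62. MEN1 was higher in the MLL1-KO lines than in the SAP30-KO lines by 0.69, and lower in the SAP30-KO lines than in the SIN3A+SIN3B-DKO lines by -0.78. With the median of their neighbours on chromosome 11 subtracted, these 5 differences were 0.15, -0.71, -0.01, 0.19 and -0.22 in the same order. Groups of 2 libraries are too small for a check of single outlying libraries.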

How the results depend on the processing

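Under either other pseudocount (0.1 or 1), without the filter, under median-ratio scaling, only the groups compared, and voom on recovered reads, every count of called genes among the 10 stayed as given. Same-numbered libraries did not deviate together (mean correlation 0.01, from -0.07 to 0.08 over 21 pairs of groups), so they share only a number, and with the replicate number as a block MLL was called in the same 4 lines, the counts staying at 1 in SAP30-KO1, SAP30-KO2, MLL1-KO1 and MLL1-KO2. With a 2-fold minimum 0 genes were called in SAP30-KO1, SAP30-KO2, MLL1-KO2, MLL1-KO2 against MLL1-KO1, MLL1-KO against SAP30-KO and SAP30-KO against SIN3A+SIN3B-DKO. With no fold minimum the counts were 3, 4, 4, 1, 7 and 6 in SAP30-KO1, SAP30-KO2, SIN3A+SIN3B-DKO1, SIN3A+SIN3B-DKO2, MLL1-KO1 and MLL1-KO2, 2 between the SIN3A+SIN3B-DKO lines, 3 between the MLL1-KO lines, 6 for MLL1-KO against SAP30-KO, 5 for MLL1-KO against SIN3A+SIN3B-DKO, and 6 for SAP30-KO against SIN3A+SIN3B-DKO.

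With the neighbour median subtracted the count was 0 in SAP30-KO1, SAP30-KO2, MLL1-KO2, MLL1-KO2 against MLL1-KO1, and SAP30-KO against SIN3A+SIN3B-DKO. The direction turned for MLL in SAP30-KO2 (0.26), ASH2L and WDR5 in MLL1-KO2 (0.0066 and -0.0295), ASH2L in MLL1-KO against SAP30-KO (0.0449), PSIP1 in MLL1-KO against SIN3A+SIN3B-DKO (0.0301), and WDR5 in SAP30-KO against SIN3A+SIN3B-DKO (0.0099), and the cause was not tested. In MLL1-KO2 against MLL1-KO1 the count was also 0 under quantile normalization (MLL 0.57) and with length trends removed (MLL 0.52).

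Leaving out 1 library, the counts ranged from 1 to 2 in SAP30-KO1, from 0 to 1 in SAP30-KO2, from 1 to 2 for MLL1-KO against SAP30-KO and from 1 to 2 for SAP30-KO against SIN3A+SIN3B-DKO. Without SAP30-KO1 replicate 1, MLL2 was called lower (-0.83). Without SAP30-KO1 replicate 2, MLL was called in MLL1-KO against SAP30-KO (-0.62). Its call in SAP30-KO against SIN3A+SIN3B-DKO was lost without SAP30-KO1 replicate 2 (-0.51), SAP30-KO2 replicate 2 (-0.58) or SIN3A+SIN3B-DKO2 replicate 2 (-0.54). Changes that passed the test below the fold minimum were less stable. With 1 library left out, the largest adjusted p against parental was 0.078 for MEN1 in MLL1-KO2, 0.14 for MLL3 in MLL1-KO1, 0.073 and 0.12 for SETD1A in MLL1-KO1 and SIN3A+SIN3B-DKO1, 0.07 for ASH2L in SAP30-KO2, 0.25 for PSIP1 in SIN3A+SIN3B-DKO1, and 0.21, 0.069, 0.057 and 0.11 for WDR5 in SAP30-KO1, SIN3A+SIN3B-DKO1, MLL1-KO1 and MLL1-KO2. Between lines of a genotype it was 0.19 for RBBP5 and 0.21 for DPY30 in the MLL1-KO lines and 0.22 for DPY30 in the SIN3A+SIN3B-DKO lines. With 2 libraries a group, small changes of the noisiest genes, MLL2 and MLL3, could not be detected.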

Other observations

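In a single line, between 13.6% and 25.2% of all genes tested were called in either direction, and the counts in this section stand beside that share. The enzymes that remove H3K4 methylation were mostly within the fold minimum. Of 6 tested, KDM1B, a lysine demethylase, was called lower in both MLL1-KO lines, from 36.9 and 36.8 TPM in parental to between 21.0 and 23 (log2 fold changes -0.73 and -0.72), with neighbour medians of -0.41 and -0.15, and no other was called in any line. Of 18 MLL fusion partners and elongation factors, all tested, AFF3, a scaffold of a super elongation complex, was called higher in both SAP30-KO lines, from 24.4 and 22.9 TPM to between 33.6 and 39.6 (0.60 and 0.72), with neighbour medians of 0.07 and 0.02. AFF3 was called lower in MLL1-KO1 (-0.98), where MLL1-KO2 had -0.25. MLLT6 was called lower in SIN3A+SIN3B-DKO2 (-0.60, neighbour median -0.36), where SIN3A+SIN3B-DKO1 had -0.47. EAF2 was called lower in MLL1-KO2 (-0.98, neighbour median -0.12), where MLL1-KO1 had -0.59 and was not called.

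Of 12 readers of the mark, all tested, BPTF was called lower in SIN3A+SIN3B-DKO1 (-0.69), where SIN3A+SIN3B-DKO2 had -0.42. In MLL1-KO2 ING5 was called lower (-0.84) and ING2 higher (0.85), where MLL1-KO1 had 0.04 and 0.27. None of the 12 was called in both lines of a genotype. ING5 was itself the middle value of its 51 genes, whose median was -0.84. Of 7 other SET-domain proteins, 5 were tested, and SETD7 was called lower in MLL1-KO1 alone among the 6 lines (-0.60).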
